A study of Mus musculus with 2 samples.

Results

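The 6 actins and 4 alpha-actinins of the mouse are described here in heart muscle. The 10 genes, Actc1, Acta1, Acta2, Actg2, Actb, Actg1, Actn2, Actn3, Actn1 and Actn4, were taken by symbol. No measured value entered that rule, but the members were chosen with earlier results of these data known. All 10 were found among 55536 annotated genes. The heart tissue came from male mice aged 8 to 10 months, offspring of 5xFAD and CAST parents. 5xFAD is a transgenic line that models amyloid deposition in the brain, with transgenes driven by the neuronal Thy1 promoter, and CAST denotes an inbred strain descended from wild mice. The labels do not say whether the animals used here carried the transgenes. There is 1 group of 2 libraries, called library 1 and library 2 by their replicate numbers. The labels call them biological replicates with separate tissue samples but give 1 donor identifier. Whether they come from separate animals is therefore not known, and no comparison between conditions was possible. Each library was made from 300 ng of total RNA with a directional kit, depletion of ribosomal RNA and ERCC spike-ins. Expected counts over annotated genes summed to 39668202 in library 1 and 36926511 in library 2.

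Actin is the protein of thin filaments in muscle and of the cytoskeleton in other cells, and its monomers add to and leave filaments with the help of many binding proteins. The mouse has separate genes for cardiac (Actc1), skeletal (Acta1), vascular smooth muscle (Acta2) and enteric smooth muscle (Actg2) actin and for the beta (Actb) and gamma (Actg1) actins found in nearly every cell. Alpha-actinins form antiparallel dimers that crosslink actin filaments. Actn2 and Actn3 do so at the Z-disc, the boundary of the sarcomere where thin filaments of opposite polarity are anchored, whereas Actn1 and Actn4 act at adhesions and stress fibres and bind calcium through their EF-hands. In rodents, Acta1 is known to be abundant in the fetal heart and to rise again in the stressed adult heart.

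The members are spread over 9 chromosomes, and all 10 are on the minus strand (mm10, GENCODE M21). The striated muscle actins are Actc1 on chromosome 2 at 114047282 to 114053548 and Acta1 on chromosome 8 at 123891769 to 123894751, with 7 exons in each leading transcript. The smooth muscle actins, with 9 exons each, are Acta2 on chromosome 19 at 34241090 to 34255590 and Actg2 on chromosome 6 at 83512905 to 83536265. The cytoplasmic actins, with 6 exons each, are Actb on chromosome 5 at 142903115 to 142906754 and Actg1 on chromosome 11 at 120345690 to 120348542. The alpha-actinins have 21 exons each in their leading transcripts. The muscle forms are Actn2 on chromosome 13 at 12269426 to 12340760 and Actn3 on chromosome 19 at 4861216 to 4877909, and the non-muscle forms are Actn1 on chromosome 12 at 80167547 to 80260371 and Actn4 on chromosome 7 at 28893248 to 28962340. Leading transcripts range from 1273 bases (Actg2) to 2035 bases (Acta2) among the actins and from 2887 (Actn3) to 3877 bases (Actn4) among the alpha-actinins.

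The actins differ less in what they encode than in their bases. The first 60 coding bases of the leading transcript of each actin are shown, because the N-terminal codons are where the actins are known to differ most. They are written from the start codon, in lower case, with capitals where a base differs from the aligned base of Actc1.
Actc1: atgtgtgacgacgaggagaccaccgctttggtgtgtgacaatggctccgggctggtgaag
Acta1: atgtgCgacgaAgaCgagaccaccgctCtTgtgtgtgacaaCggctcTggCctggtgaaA
Acta2: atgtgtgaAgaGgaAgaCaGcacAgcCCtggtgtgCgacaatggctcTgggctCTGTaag
Actg2: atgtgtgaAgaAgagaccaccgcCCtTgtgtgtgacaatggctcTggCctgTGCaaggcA
Actb: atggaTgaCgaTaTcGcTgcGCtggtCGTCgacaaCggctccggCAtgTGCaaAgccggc
Actg1: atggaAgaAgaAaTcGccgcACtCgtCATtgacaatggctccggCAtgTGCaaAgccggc
In this stretch Acta1 differed from Actc1 at 9 bases, Actg2 at 11, Acta2 at 14, Actg1 at 17 and Actb at 19. Over the whole coding sequence, Actc1 and Acta1 had 86.2% identical bases (157 mismatches in 1134 aligned bases), yet only 4 of 377 aligned codons encoded different residues. Actb and Actg1 had 88.7% identical bases and also 4 differing codons, of 375 aligned. Acta2 and Actg2 had 84.4% identical bases and 2 differing codons of 376.

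Bases decide whether a read can be told apart between these genes. The longest run of bases that Actc1 and Acta1 shared was 29 bases long, at coding bases 964 to 992 of both, and it read ctggctcccagcaccatgaagatcaagat. Actb and Actg1 shared a run of 62 bases, at coding bases 889 to 950 of both.
Actb and Actg1: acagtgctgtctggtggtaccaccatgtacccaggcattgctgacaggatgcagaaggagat
The longest run shared by any pair of actins was 77 bases, between Acta1 and Actb. Each of these runs was shorter than the 101-base window that the effective lengths of the first quantification correspond to.

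The alpha-actinins were further apart, with 75.4% (Actn3 and Actn4) to 80.7% (Actn1 and Actn4) identical bases. In contrast to the actins, their translated identity was close to the base identity, from 74.1% for Actn3 and Actn4 to 85.9% for Actn1 and Actn4. The muscle pair Actn2 and Actn3 had 76.3% identical bases and 174 differing codons of 894 aligned. The most conserved 60 bases across the 4 genes are shown with capitals where a base differs from Actn2.
Actn2: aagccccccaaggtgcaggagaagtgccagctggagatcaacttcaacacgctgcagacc
Actn3: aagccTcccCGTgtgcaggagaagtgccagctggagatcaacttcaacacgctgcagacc
Actn1: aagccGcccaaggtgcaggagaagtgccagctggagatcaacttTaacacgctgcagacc
Actn4: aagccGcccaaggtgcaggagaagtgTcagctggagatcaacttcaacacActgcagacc
Here Actn1 differed from Actn2 at 2 bases, Actn4 at 3 and Actn3 at 4. The stretch starts at coding base 991 of Actn2, 1009 of Actn3, 970 of Actn1 and 1030 of Actn4.

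**Figure D1:**
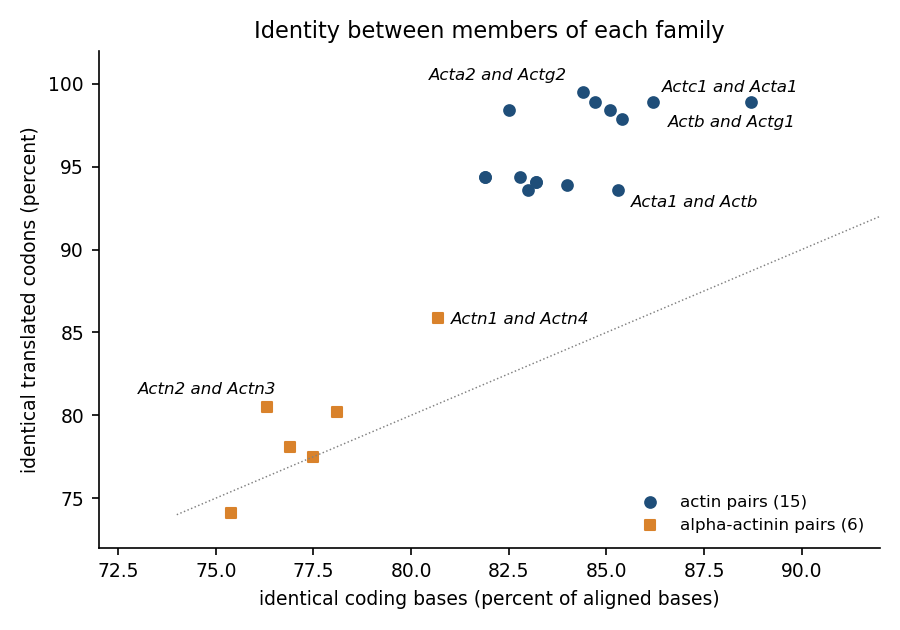
Identity between the members of each family, with identical coding bases on the x axis and identical translated codons on the y axis, both in percent of the aligned positions. Each point is a pair of genes, 15 actin pairs (circles) and 6 alpha-actinin pairs (squares), and the dotted line marks equal values. The actin pairs lie far above the line, at 93.6% or more identical codons, and the alpha-actinin pairs lie near it.

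The 10 genes ran from rank 4 (Actc1) to rank 12057 (Actg2) among 22015 nuclear protein-coding genes. Levels are given in TPM, a measure that divides counts by length and scales each library to the same total, and so allows genes to be compared. Each library came with 2 quantifications, called the first and the second, and values are from the first unless stated. Cardiac actin Actc1 had 4327.33 TPM in library 1 and 4459.79 TPM in library 2, a mean of 4394 ± 93.7 TPM (SD, n = 2). Both libraries placed Actc1 far above every other member.

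Skeletal actin Acta1, which encodes nearly the same protein, was at 205.90 TPM in library 1 and 183.27 TPM in library 2 (195 ± 16.0, SD, n = 2). It thus held 4.24% ± 0.421 (SD, n = 2) of the summed TPM of the 2 striated muscle actins. Actc1 over Acta1 was 22.7 ± 2.35 (SD, n = 2), lower in library 1 than in library 2. In the second quantification the Acta1 share was higher, at 5.12% ± 0.634 (SD, n = 2), and Actc1 over Acta1 was 18.7 ± 2.43 (SD, n = 2).

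Among the smooth muscle actins, Acta2 had 25.17 TPM in library 1 and 22.49 TPM in library 2 (23.8 ± 1.90, SD, n = 2). Actg2 had 0.42 and 0.55 TPM, from 17 and 20 expected counts. Acta2 stood above Actg2 by 59.9 times in library 1 and 40.9 times in library 2. Together they made up 0.497% ± 0.0458 (SD, n = 2) of the summed actin TPM. All 8 markers of smooth muscle were at a mean of at least 1 TPM, and their summed level was 159 TPM in library 1 and 153 TPM in library 2. Smtn (58.7 TPM), Synpo2 (31.8 TPM) and Myocd (23.4 TPM) held most of it. Synpo2 and Myocd are also in the lists of Z-disc partners and actin gene regulators below, so the sum is not specific to smooth muscle. Lowest were Myh11 (8.71 TPM), Cnn1 (2.46 TPM) and Lmod1 (1.00 TPM). In a bulk sample, fewer cells of a type and less RNA per cell cannot be told apart.

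The cytoplasmic actins, which cardiomyocytes and the other cells of the heart share, were more abundant than the smooth muscle ones. Actb had 200.78 and 207.25 TPM (204 ± 4.57, SD, n = 2). Actg1 had 75.07 and 86.87 TPM (81.0 ± 8.34, SD, n = 2). Actb exceeded Actg1 by 2.67 times in library 1 and 2.39 times in library 2. The pair held 5.82% ± 0.158 (SD, n = 2) of the actin TPM. By gene, Actc1 made up 89.7% ± 0.286 of the actin TPM, Actb 4.17% ± 0.0179, Acta1 3.98% ± 0.399, Actg1 1.65% ± 0.140 and Acta2 0.487% ± 0.0475 (SD, n = 2 each). Actg2 made up 0.00989% ± 0.00170 (SD, n = 2).

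The alpha-actinins were as uneven. Actn2, the alpha-actinin of the cardiac Z-disc, had 564.19 and 582.24 TPM (573 ± 12.8, SD, n = 2) and ranked 68 among nuclear protein-coding genes. Actn3, known from fast skeletal muscle fibres, had 0.64 and 0.86 TPM, from 59 and 71 expected counts. Of the non-muscle forms, Actn4 had 22.59 and 24.86 TPM and Actn1 7.18 and 6.87 TPM. Actn2 therefore held 94.8% ± 0.132 of the alpha-actinin TPM, Actn4 3.92% ± 0.173, Actn1 1.16% ± 0.0637 and Actn3 0.124% ± 0.0228 (SD, n = 2 each). In both libraries Actn4 was above Actn1, by 3.15 and 3.62 times.

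Low Actn3 lay beside low levels of other skeletal muscle genes. Of 11 skeletal muscle markers, 8 were at a mean of at least 1 TPM, and their summed level was 21.5 TPM in library 1 and 26.1 TPM in library 2. Mybpc2, a fast-type myosin-binding protein, led them with 6.01 ± 0.509 TPM, followed by Tnnt3 and Mylpf, each with a mean of 3.35 TPM. Below 1 TPM were the myosins Myh1, at 0.205 TPM, and Myh2, at 0.105 TPM, while the myogenic factor Myf6 was at 0 counts in both libraries. Whether the Actn3 counts come from skeletal muscle cells was not tested.

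The 2 families stood in a similar proportion in both libraries. Summed actin was 4835 TPM in library 1 and 4960 TPM in library 2, and summed alpha-actinin was 595 and 615 TPM. The ratio was 8.13 in library 1 and 8.07 in library 2 (8.10 ± 0.0448, SD, n = 2). For the main sarcomeric pair, Actc1 over Actn2, it was 7.67 and 7.66 in the first quantification and 8.33 and 8.72 in the second. For the cytoplasmic actins over the non-muscle alpha-actinins it was 9.27 in both libraries in the first quantification and 7.23 and 7.44 in the second. Actins made up 1.50% ± 0.0271 and alpha-actinins 0.185% ± 0.00437 of the TPM summed over nuclear protein-coding genes (SD, n = 2 each).

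In the order of mean levels, Actc1 was followed by Actn2, Actb, Acta1, Actg1, Acta2, Actn4, Actn1, Actn3 and Actg2. The values of the 2 libraries overlapped for 2 neighbouring pairs. Actb was 0.98 times Acta1 in library 1 and 1.13 times in library 2, and in the second quantification it was below Acta1 in both, at 0.82 and 0.99 times. Acta2 was 1.11 and 0.90 times Actn4, and in the second quantification 0.98 and 0.84 times. These pairs thus have no order that holds across libraries and quantifications. The other 7 neighbouring pairs did not overlap between libraries, the closest being Actn3 and Actg2, whose levels rest on few counts.

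**Figure D2:**
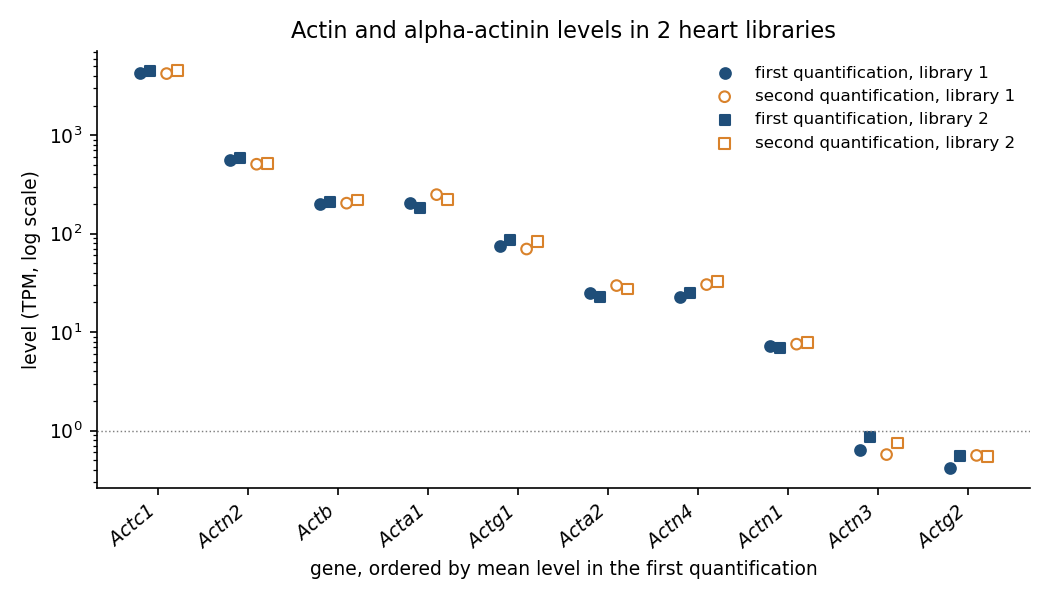
Levels of the 10 genes in TPM on a log axis, in the order of their mean in the first quantification. Filled symbols are the first and open symbols the second quantification, circles are library 1 and squares library 2, and the dotted line marks 1 TPM. Actc1 stands apart at the top in every case, Actb and Acta1 overlap, and Actn3 and Actg2 lie below 1 TPM.

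The second quantification gave the same picture with some shifts. Its mean was 4372 TPM for Actc1, 0.995 times the first, and 513 TPM for Actn2, 0.895 times the first. Acta1 (235 TPM) and Acta2 (28.6 TPM) were 1.21 and 1.20 times higher than in the first. Actn4 moved most, to 31.6 ± 1.73 TPM (SD, n = 2), 1.33 times the first. Summed actin over summed alpha-actinin was then 8.91 ± 0.214 (SD, n = 2).

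Reads that fit several genes could blur these levels, and the files allow this to be measured for each member. The first quantification gives a posterior standard deviation of each expected count, the uncertainty left after reads are shared out. It was 0 in both libraries for 8 of the 10 members, as it was for 80.1% of the 5857 genes that reach 500 counts in both. The exceptions were Actb, with 2.68 counts in library 1 and 2.56 in library 2, and Actg1, with 13.38 and 11.93. For Actg1 this is 0.314% and 0.264% of its expected count. The same 2 genes stood out in sequence. Of the 101-base windows of the leading transcript, 0 occurred in a transcript of another gene for 8 members, 1.04% did for Actb and 50.9% (943 of 1852) did for Actg1. These windows of Actg1 were found in Actg-ps1, Gm12715, Gm16385, Gm6375, Gm8399 and Gm8543, all annotated as processed pseudogenes. Those of Actb were found in Gm15725 and Lrrc58. Shorter windows of 31 bases were shared more often. Of these, 35.1% for Actb and 57.1% for Actg1 occurred in another gene, and 0.832% (Actc1) to 4.45% (Acta1) did for the other 8 members.

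Expression assigned to actin pseudogenes was low but not absent. Of 14 annotated genes that share at least 20% of their 31-base windows with a member, 6 are miRNA models and the others processed pseudogenes. Of the 14, 13 were nearest to Actg1, and 2 had a mean of at least 1 TPM. Gm8399, on chromosome 13 at 81064684 to 81065800 on the plus strand (mm10), shared 76.0% of these windows with Actg1 and had 7.24 and 7.48 TPM. Gm15725, on chromosome 16 at 37882542 to 37883631 on the plus strand, shared 26.4% with Actb and had 4.77 and 3.03 TPM. All 14 summed to 13.6 TPM in library 1 and 12.1 TPM in library 2. The posterior standard deviation of the Actg1 count was small, 0.314% and 0.264%, although 50.9% of its 101-base windows occur in other genes. Whether the split of reads between Actg1 and its pseudogenes is right was not tested otherwise, and the Actg1 level is to be read with that limit.

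Some members are overlapped by genes on the other strand, and the library kit is directional. A530058N18Rik, a processed transcript on the plus strand that spans Actc1, was the overlapping gene with a mean of at least 1 TPM in the first quantification, with 2.87 and 2.37 TPM. Gm20388, a long plus-strand model that spans Acta1, had 0 TPM in both libraries in the first quantification and 5.63 and 4.61 TPM in the second. How the counting used strand is not given in the sources used here, and the effect on Acta1 and Actc1 was not tested.

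Below the gene level, 55 transcripts are annotated for the members. Of these, 22 held at least 10% of their gene's TPM in some library and quantification, and 8 were at 0 in every table. Actc1, Actn2 and Actn3 were each carried by 1 transcript. Actc1-201 had 4326 and 4458 TPM, nearly all of its gene, in the first quantification and 97.5% and 96.2% of it in the second. Actn2-201 held 95.8% and 93.2% in the first and 99.9% and 99.8% in the second. Actn3-201 held 100% and 93.0% in the first and 100% of Actn3 in both libraries in the second.

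For the other actins the 2 quantifications divided the transcripts differently. Acta1-201, the full-length model of 1446 bases, held 99.2% of Acta1 in both libraries in the first quantification and 69.0% and 72.2% in the second. The difference went to Acta1-202, a model of 616 bases, which had 1.55 and 1.48 TPM in the first and 77.2 and 61.7 TPM in the second. Acta1-201 itself was lower in the second quantification, with 172 and 160 TPM against 204 and 182 TPM in the first. Acta2 showed a like pattern, since Acta2-202 (826 bases) held 36.1% and 25.7% of the gene in the first and 54.4% and 47.7% in the second. Actc1-202, a model of 303 bases, went from 1.38 and 1.83 TPM to 104 and 172 TPM, at most 3.81% of its abundant gene.

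The cytoplasmic actins were split across several models. Actb-201, the full-length form, held 74.3% and 72.8% of Actb in the first quantification and 66.9% and 64.6% in the second. The remainder went mainly to Actb-206 (28.7 and 35.6 TPM), a non-coding processed transcript, in the first, and to Actb-208 (54.3 and 44.6 TPM), a protein-coding model of 930 bases, in the second. Actg1-202 held 87.1% and 75.0% of Actg1 in the first and 40.3% and 39.6% in the second. In the second, Actg1-204, a protein-coding model of 1827 bases, stood beside it with 42.5% and 39.0%, whereas the first gave it 0% and 7.59%. At the level of Actg2 the assignment even changed between libraries. Actg2-201 held 83.3% of the gene in library 1 and 0% in library 2 in the first quantification, and 0% and 82.5% in the second, with Actg2-202 taking the rest.

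Actn1 has a pair of coding models that differ by mutually exclusive versions of exon 19, known as the non-muscle and the smooth muscle form of the EF-hand region. Both exons are shown, as they are the internal coding exons in which the models differ. The 81-base exon of Actn1-201 lies on the minus strand at chr12:80170686-80170766 and the 66-base exon of Actn1-202 at chr12:80170183-80170248 (mm10).
Actn1-201: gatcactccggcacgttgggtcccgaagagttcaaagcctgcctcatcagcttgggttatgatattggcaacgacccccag
Actn1-202: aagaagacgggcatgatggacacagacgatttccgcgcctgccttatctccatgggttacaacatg
The models encode 892 and 887 codons. Actn1-201 is also longer, with 3734 bases against 2664, mostly outside the coding sequence, so reads there bear on the shares as well. Actn1-201 had 3.43 TPM in library 1 and 3.45 TPM in library 2. Actn1-202 had 3.10 and 2.38 TPM. Actn1-201 was the higher of the pair in both libraries and in both quantifications, with 47.8% and 50.2% of Actn1 in the first and 43.1% and 39.9% in the second, against 43.2% and 34.6%, then 36.6% and 31.1%, for Actn1-202. The non-coding Actn1-204 passed 10% in library 1 of the second quantification, at 10.5%. The non-coding Actn1-207 did so in library 2, at 11.5% in the first and 14.9% in the second.

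Actn4 was mostly Actn4-201 in the first quantification, at 64.5% and 52.2%, but only 30.8% and 28.2% in the second. Actn4-206, a non-coding model of 2581 bases, had 1.49 and 3.21 TPM in the first and 6.75 and 6.94 TPM in the second. The short coding models Actn4-204 (774 bases) and Actn4-207 (617 bases) held 19.2% and 13.5%, and 10.9% and 16.8%, of Actn4 in the second. Actn4-211, which carries an exon of 60 bases that Actn4-201 lacks, was listed at 0 in both quantifications of both libraries.

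**Figure D3:**
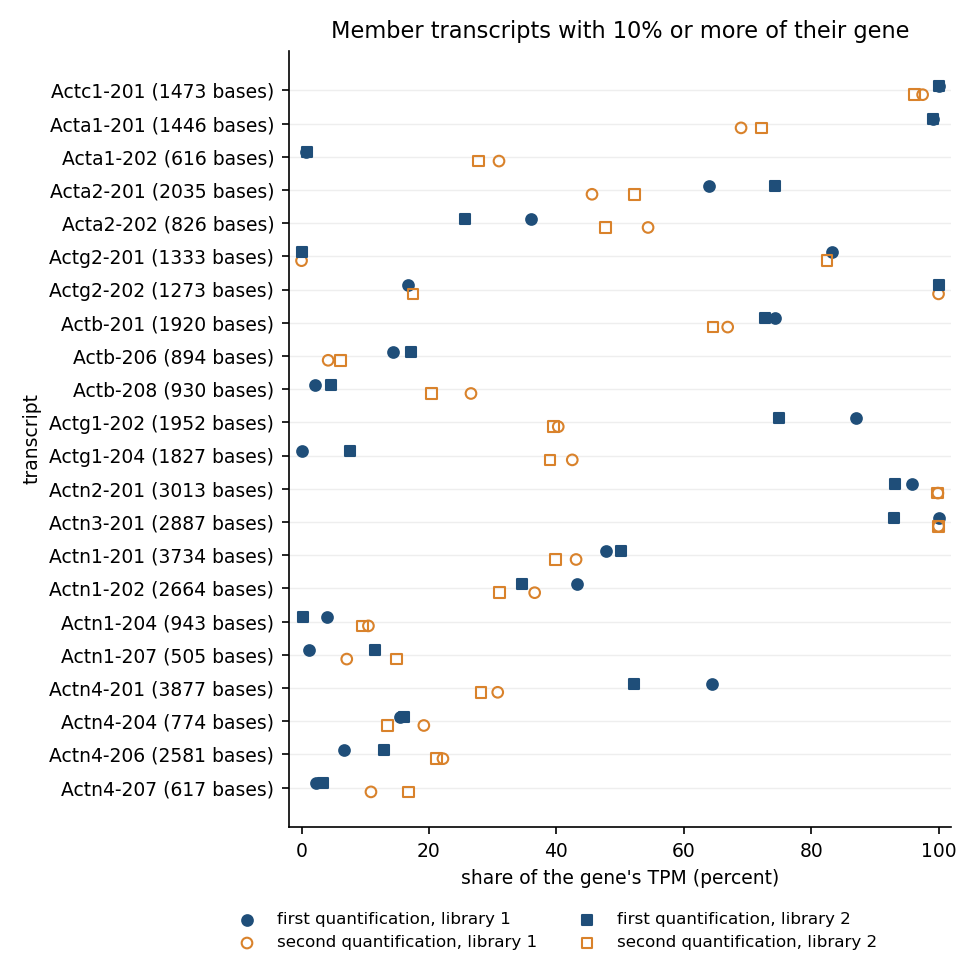
Share of each gene's TPM, in percent, held by the 22 member transcripts that reach 10% in any library and quantification. Filled symbols are the first and open symbols the second quantification, circles library 1 and squares library 2. The symbols agree for Actc1-201, Actn2-201 and Actn3-201, and the fills part for Acta1, Actg1 and Actn4. For Actg2 they part in each library, in opposite directions.

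The 2 libraries were then compared with each other, as a measure of how reproducible the levels were. A ratio of rounded expected counts, library 2 over library 1, was scaled by the total annotated counts and given an exact 95% interval that covers counting error only. The interval excluded 1 for 5 of the 10 members, beside 21.1% of the 16092 genes with at least 10 counts in a library. Counting intervals narrow with depth, and among 6022 genes with a mean of at least 500 counts, where 8 of the members lie, the share was 29.4%. The median log2 TPM ratio was 0.05 over the members and -0.01 over the 12032 genes with a mean of at least 1 TPM.

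Of these 5, 4 were higher in library 2, Actc1, at 1.042 times (1.035 to 1.048), Actn2, at 1.020 times (1.008 to 1.033), Actb, at 1.041 times (1.012 to 1.070), and Actg1. Actg1 had 4256.82 expected counts in library 1 and 4510.51 in library 2, a ratio of 1.138 (1.091 to 1.187). Acta1 was lower in library 2, with 9146 and 7657 counts and a ratio of 0.899 (0.872 to 0.927). The ratios of Acta1 and Actg1 lie just inside the 5th and 95th percentiles of the deeply counted genes, 0.889 and 1.143. Their absolute log2 TPM ratios, 0.168 and 0.211, stand beside a median of 0.084 over those genes. Actc1 and Acta1 therefore differed in opposite directions between the libraries, and the Acta1 share of their sum was 4.54% in library 1 and 3.95% in library 2.

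For Acta2 (0.979, 0.903 to 1.062), Actn4 (1.010, 0.950 to 1.074) and Actn1 (0.926, 0.829 to 1.035) the interval included 1. It also did for Actn3 (1.293, 0.902 to 1.858) and Actg2 (1.264, 0.629 to 2.569), at whose depth a difference of this size was not detectable. Of the 8 members with a mean of at least 1 TPM, 0 passed a 2-fold ratio of TPM + 1, which 0.947% of the 12032 such genes did. With no filter on the mean it was 0 of 10 members, beside 0.667% of all genes with a value. With 1 group no test with replicates was possible, and intervals of this kind take no account of variation between tissue pieces. With spike-in counts as the scale, Actn4 was also above 1, at 1.069 (1.005 to 1.136), and with DESeq2 size factors the interval of Actn2 included 1, at 1.009 (0.996 to 1.021).

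**Figure D4:**
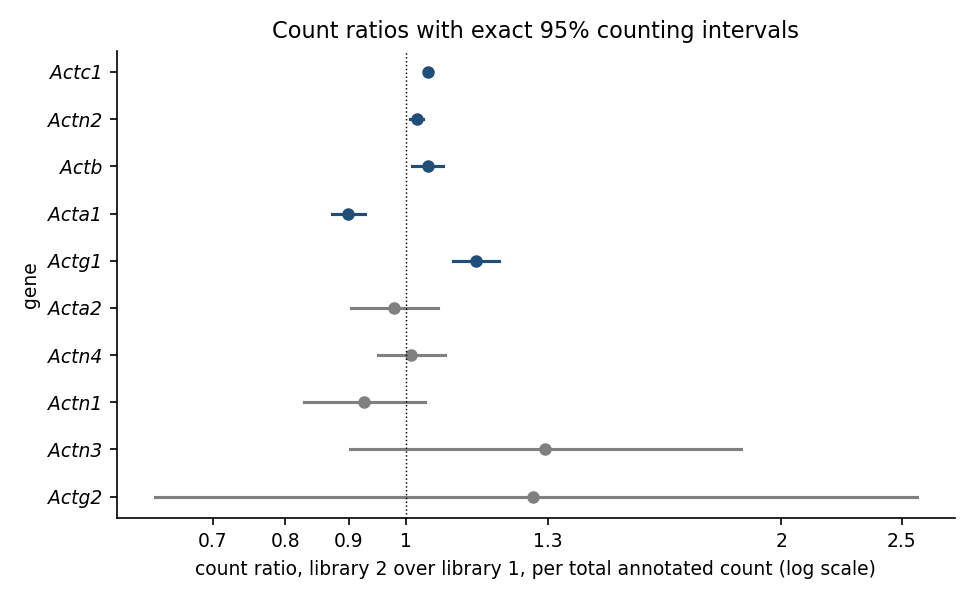
Ratio of counts in library 2 over library 1 for each gene, per total annotated count, on a log axis. Points are ratios, bars are exact 95% intervals for counting error, and blue marks intervals that exclude 1. Acta1 lies at 0.899 and Actg1 at 1.138, and the bars widen to 0.629 to 2.569 for Actg2.

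The libraries also differed in markers of other cell types, which is given here beside the ratios. Cardiomyocyte markers had similar sums, 26118 TPM in library 1 and 25718 TPM in library 2, with all 8 at a mean of at least 1 TPM. The sums hide shifts both ways, since 2 of the 8 intervals lay above 1 and 4 below. Among deeply counted genes, 29.4% had an interval that excluded 1 in either direction. Myl2 had 7755.97 and 7359.02 TPM, and Myh6 had 6619.84 and 6910.96 TPM. Atrial markers, all 5 detected, summed to 1169 and 1559 TPM. The intervals of 4 of them lay above 1, beside 21.1% of all genes tested with an interval that excluded 1 in either direction. Nppa, the atrial natriuretic peptide, had 617.29 and 842.36 TPM. Adipocyte markers, 5 of 6 at a mean of at least 1 TPM, summed to 10.2 and 38.1 TPM. Those 5 all had intervals above 1, beside the same 21.1% of all genes. Retn was the adipocyte marker below 1 TPM, with 0.185 TPM. Whether more atrial or fat tissue in library 2 plays a part in the Acta1, Actc1, Actg1 and Actb ratios was not tested.

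Smooth muscle, pericyte, fibroblast and endothelial markers, all of cell types that can express Acta2, Actb, Actg1, Actn1 and Actn4, had similar sums. Most markers of each list were nonetheless lower in library 2. Those higher in library 2 were 2 of 8 smooth muscle, 2 of 8 pericyte, 1 of 9 fibroblast and 1 of 8 endothelial markers. All 8 pericyte markers were at a mean of at least 1 TPM and summed to 208 and 199 TPM. All 9 fibroblast markers were detected likewise and summed to 232 and 219 TPM, and the 8 endothelial ones to 1064 and 1067 TPM. Cd36 (631 TPM) and Fabp4 (262 TPM) held most of the endothelial sum, so the even sum does not speak for the other markers of that list. Fabp4 was higher in library 2, at 252.55 and 272.10 TPM. The other 7 of the 8 were lower in library 2, and the median log2 TPM ratio of the list was -0.13. The 7 leukocyte markers summed to 68.0 and 74.5 TPM. Within the endothelial list 5 of 8 intervals lay below 1 and 1 above, and within the smooth muscle list 4 of 8 lay below 1 and 0 above. The pericyte list had 2 of 8 below and 1 above, and the fibroblast list 2 of 9 below and 1 above. In either direction, the interval excluded 1 for 21.1% of all genes tested and 29.4% of the deeply counted ones. Acta2 had an interval that included 1. The part of these cells in the ratios was not tested.

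**Figure D5:**
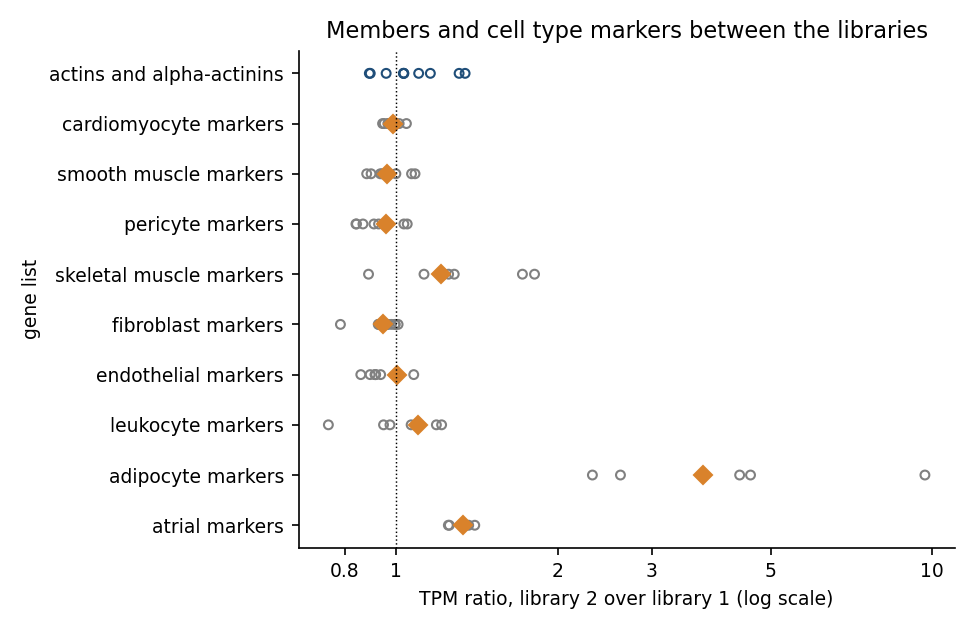
TPM in library 2 over library 1 on a log axis, for the 10 members in the top row and for cell type markers with a mean of at least 1 TPM in the other rows. Open circles are genes and diamonds the ratio of the summed TPM of each marker list. The adipocyte diamond rests on sums of 10.2 and 38.1 TPM and the atrial one on 1169 and 1559 TPM. The members run from 0.890 (Acta1) to 1.344 (Actn3), the highest being the sparsely counted Actn3 and Actg2.

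Transcripts of the genes that turn filaments over were all detected. The 16 genes of the turnover list each had a mean of at least 1 TPM. Gsn, which severs and caps filaments, led with 222 ± 11.0 TPM. Tmsb4x, which sequesters monomers, had 163 ± 2.79 TPM and Cfl2, the muscle cofilin that severs filaments, 136 ± 2.54 TPM (SD, n = 2 each). Between the libraries, 1 of the 16 intervals lay above 1 and 4 lay below, near the 29.4% of deeply counted genes called in either direction.

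All 18 genes of filament nucleation and elongation were likewise detected. Fhod3, a formin of the cardiac sarcomere, had 125 ± 10.7 TPM in the first quantification and 71.9 ± 3.15 TPM in the second. Arpc2, a subunit of the Arp2/3 complex, had 45.0 ± 0.191 TPM and Enah, which elongates filaments, 41.9 ± 2.99 TPM. Of their 18 intervals, 3 lay above 1 and 4 below, beside 21.1% of all genes tested and 29.4% of the deeply counted ones. Among 12 actin-like and actin-related genes 10 reached a mean of 1 TPM, led by Actr10 (43.7 ± 0.148 TPM), Actr3 (34.2 ± 0.0990) and Actr1b (29.7 ± 1.46). Actl6b, of neuronal chromatin remodelling complexes, was at 0 and 0.02 TPM, and Actbl2 had 0 counts in both libraries. Of these 12 intervals 1 lay above 1 and 1 below, beside 21.1% of all genes tested.

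Actin needs the chaperonin CCT and prefoldin to fold, and its N terminus is processed after synthesis. The 18 genes of folding and end processing were all at a mean of at least 1 TPM. Pfdn5 had 110 ± 0.827 TPM, Tcp1 62.9 ± 3.15 TPM and Cct3 52.8 ± 4.59 TPM. In this list 7 of 18 intervals lay above 1 and 0 below, beside 29.4% of the deeply counted genes with an interval that excluded 1 in either direction. The median log2 TPM ratio was 0.05, beside -0.01 over the 12032 genes. The list was not tested against other genes.

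The Z-disc partners of Actn2 ranged from among the most abundant to nearly silent genes. Tcap, which caps titin, had 1365 ± 4.62 TPM, Ttn, the titin filament itself, 1012 ± 20.2 TPM and Csrp3, a muscle LIM protein, 785 ± 37.8 TPM. Each of the 3 was above Actn2 in TPM. Of 17 partners 15 reached a mean of 1 TPM. The 2 below were Myoz1, at 0.665 TPM, and Myoz3, at 0.00500 TPM, both known from skeletal muscle, as is Actn3. Between libraries 2 of 17 intervals lay above 1 and 5 below, beside the same 29.4% of deeply counted genes.

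Partners of Actn1 and Actn4 at adhesions were detected for 9 of 9 genes. Itgb1, the beta chain of collagen and laminin receptors, had 104 ± 0.750 TPM, Palld, an actin-crosslinking scaffold, 64.0 ± 0.933 TPM and Vcl, which links adhesions to actin, 34.2 ± 0.198 TPM. The summed level was 295 TPM in both libraries, and 2 of 9 intervals lay above 1 and 0 below, a share near the 21.1% of all genes tested.

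Known regulators of actin genes were all measured, with 12 of 12 at a mean of at least 1 TPM. Tead1 had 53.8 ± 1.15 TPM, Mef2a 44.2 ± 0.226 TPM and Mef2d 44.0 ± 0.474 TPM. Of the 12 intervals 0 lay above 1 and 4 lay below, Tead1 among them, at 0.959 (0.933 to 0.985). That share is near the 29.4% of deeply counted genes.

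Serum response factor is known to bind the CArG box in promoters of muscle actins, so promoter sequences were searched for it. RefSeq windows (GRCm38.p6) of 250 bases before to 50 bases after the start were matched for 7 members, Actc1, Acta1, Acta2, Actg1, Actn2, Actn1 and Actn4. Only the strict box CCWWWWWWGG, with W for A or T, was searched, which reads as the same pattern on both strands. It was found in 3 of the 7 windows, Actc1, Acta1 and Actg1, and in 1.63% of 32851 windows in all. Looser forms of the box were not searched, so a window without a match, as that of Acta2, may still hold one. The boxes start 47, 73 and 90 bases before the RefSeq start. They are shown in capitals with flanking bases, on the minus strand, at chr2:114052908-114052972 for Actc1, chr8:123894834-123894898 for Acta1 and chr11:120348571-120348635 for Actg1.
Actc1: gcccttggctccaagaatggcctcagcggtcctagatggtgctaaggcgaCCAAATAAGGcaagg
Acta1: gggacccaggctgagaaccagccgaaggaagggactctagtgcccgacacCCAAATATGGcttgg
Actg1: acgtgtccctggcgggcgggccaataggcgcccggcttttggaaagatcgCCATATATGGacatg
The letters TATAAA, read on the strand of the gene, were in 2 of the 7 windows, Actc1 and Acta1, and in 8.32% of all windows. The 3 genes with a strict box had mean levels of 4394, 195 and 81.0 TPM, and Actn2, without a strict match in its window, had 573 TPM. The start positions differ between annotations, since the leading transcript starts 12 bases upstream of the RefSeq start in Actc1, 47 bases upstream in Actg1 and 24 bases downstream in Acta1. In Actc1 the TATAAA letters begin 33 bases after the RefSeq start, inside the annotated transcript, so distances of boxes from a start depend on the annotation.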

How the data were processed

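Total RNA-seq tables of 2 heart libraries of 1 group were used, with groups read from the labels. The genome build was mm10 and the annotation GENCODE M21, per the deposited readme. Which aligner and tool versions served is not given in the sources used here. The authors deposited, per the file headers, expected counts, TPM and FPKM with posterior standard deviations per gene and transcript (first quantification, in the layout of RSEM), and estimated counts and TPM per transcript (second quantification, in the layout of kallisto), which were summed per gene here. The deposited FPKM served as an alternative. In each library 26249 entries that name no annotated gene or spike-in held 190 and 218 expected counts (0.000477% and 0.000588%) and were left out, and the spike-ins held 151568 and 133390.

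Means and SDs are over 2 libraries, and no p-value was computed. Expected counts were rounded for ratios, whose 95% intervals are exact (Clopper-Pearson, conditional binomial) and cover counting error only. The 2-fold rule used TPM + 1 and a mean of at least 1 TPM. Coding sequences of leading transcripts were aligned with Biopython 1.88. The interval was tested only on simulated Poisson counts, the model it assumes, so that test does not cover variation between tissue pieces or in read assignment. TMM factors (edgeR 4.0.16) and size factors (DESeq2 1.42.0) were alternatives only. Scripts ran in R 4.3.3 and Python 3.11.15 with scipy 1.17.1, pandas 2.3.3, numpy 2.4.6 and, for plots, matplotlib 3.10.9.

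Members and lists were chosen with earlier results of these data known. Named were all members, their transcripts with at least 10% of gene TPM in any library and quantification, the 3 genes of each list with the highest mean TPM, listed genes below 1 TPM where there were at most 3, and pseudogenes or overlapping genes with at least 1 TPM. Of the marker lists, values are given for those that bear on a result. Gm20388 and the transcripts Actc1-202 and Actn4-211, the pseudogenes below 1 TPM and all printed sequence stretches were chosen after their values were seen.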

Additional observations from a re-analysis of the deposited data

How the results depend on the processing

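With 1 group of 2 libraries, levels carry a spread from 2 values, and Actn3 and Actg2 rest on few counts. No paired analysis was possible because there is a single group. The count of members with an interval that excludes 1 was 5, and 4 to 6 under other scalings or the second quantification. With no filter on low counts it could not differ, because all 10 members pass that filter. The count past 2-fold was 0 under each of the 3 alternatives run, beside 0.667% to 1.69% of all genes. Of these, the alternative with no filter used the same member values as the main count, so it is no check on the members. Rescaling TPM over nuclear protein-coding genes moved none of the 10 levels by more than their SD. It multiplied by the mean total of both libraries, which leaves a mean level nearly unchanged, so it is no check. The second quantification moved 6 of the 10 levels and 8 of the 10 leading transcript shares by more than their SD, and the cause was not tested.

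Actc1 held 88.8% of the actins in the second quantification, 89.0% in expected counts not divided by length and 90.6% over protein-coding transcripts, against 89.7%, and 89.5% to 89.9% when either library was left out. The Acta1 share of the striated actins was 5.12% in the second quantification, and 3.95% to 4.54% with a library left out. The cytoplasmic share was 6.62% in counts and 4.87% over protein-coding transcripts, and 5.71% to 5.93% with a library left out. The smooth muscle share was 0.593% in the second quantification and 0.557% in counts, and 0.464% to 0.529% with a library left out. Actn2 held 92.8% of the alpha-actinins in the second quantification and 95.3% over protein-coding transcripts, and 94.7% to 94.9% with a library left out. Actins over alpha-actinins were 8.91 in the second quantification, 8.41 over protein-coding transcripts and 8.07 to 8.13 with a library left out. In counts the ratio was 4.03, since alpha-actinin transcripts are longer and counts grow with length. Within a library FPKM is proportional to TPM, so the 6 shares and ratios could not differ in FPKM, and their agreement is no check. With a library left out, each value is simply that of the other library.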
